A study of Mus musculus with 2 samples.

Results

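Chromatin accessibility at the genes of 8 cytokines and receptors of type 2 innate immunity was read from ATAC-seq peaks of ETPs, the early thymic progenitors, sorted from fetal mouse thymus. The members were all peaks of the 2 deposited lists whose centre lay in one of 3 windows of the mm9 genome. The receptor window on chromosome 1 (40200001 to 40700000) is the one given for Il1r1, Il1rl1, Il18r1 and Il18rap. The Icos window lies further along the same chromosome (60950001 to 61150000), and the cytokine window on chromosome 11 (53300001 to 53600000) is the one given for Il4, Il13 and Il5 with Rad50. The windows held 89 of the 69896 peaks of the double-knockout list and 95 of the 85764 peaks of the wild-type list, 184 of 155660 in all. Every one of the 184 was 151 bp wide.

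The libraries were 1 from E2Afl/flHEBfl/flIL7RCre animals (double knockout, dKO) and 1 from wild-type animals (WT), both of the C57BL/6 strain. The dKO carries floxed alleles of E2A and HEB, which encode E proteins, and the Cre driver IL7RCre, so that deletion depends on where and when that driver was active in lymphoid progenitors. Cells were sorted by the labelled gate of CD4-, CD8-, Lin-, CD44+, CD25- and ckit+, to which the dKO sort alone added YFP+. ATAC-seq marks accessible DNA by the insertion of sequencing adapters by a transposase. The depth of sequencing is unknown, the sources used here give neither ages nor the number of animals, and neither deletion nor cell identity could be checked, since the peaks carry no gene names. The dKO list held 0 peaks on chromosome Y and the WT list 10, so that genotype, the YFP gate, the sex of the animals and the library itself cannot be told apart. With 1 library per genotype, no test between genotypes was made, and the exact Clopper-Pearson 95% intervals below cover counting error over peaks only.

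E proteins are basic helix-loop-helix factors that bind E-box DNA, and Id proteins such as Id2 block them by pairing with them. Innate lymphoid cells depend on Id2, whereas early T cell development depends on E proteins. Group 2 innate lymphoid cells respond to IL-33 through ST2, the product of Il1rl1, and secrete IL-5 and IL-13. Il18r1 and Il18rap encode both chains of the IL-18 receptor, and Il1r1 encodes the signalling receptor for IL-1. Icos encodes a costimulatory receptor carried by activated T cells and by group 2 innate lymphoid cells. IL-4 and IL-13 are the type 2 cytokines that share a receptor chain, and IL-5 drives eosinophils. Rad50, a DNA repair gene between Il13 and Il5, contains the locus control region that is known from T helper cells of the type 2 kind.

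By gene order in a RefSeq table of another build (GRCm38.p6), Il1rl2 lies between Il1r1 and Il1rl1, and Slc9a4 and Slc9a2 follow Il18rap. Ctla4 and Cd28 precede Icos, and Pard3b follows it. The order around the cytokines is Septin8, Kif3a, Il4, Il13, Rad50, Il5 and Irf1. Peaks were not assigned to single genes, because no mm9 annotation was at hand and coordinates were not converted between builds. A peak described below is therefore a peak of a window and not of a named gene.

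E-box letters were looked up in the promoters of the member genes, because E2A and HEB bind such sequences. The RefSeq promoter table of GRCm38.p6 held 7 of the 8 member genes, all but Icos, in 12 promoter windows that run from 250 bases before to 50 bases after a transcription start. The 4 printed here are the start of Il18rap and the starts of the 3 cytokine genes, 5′ to 3′ on the gene's strand, with each CANNTG match in capitals.
Il18rap: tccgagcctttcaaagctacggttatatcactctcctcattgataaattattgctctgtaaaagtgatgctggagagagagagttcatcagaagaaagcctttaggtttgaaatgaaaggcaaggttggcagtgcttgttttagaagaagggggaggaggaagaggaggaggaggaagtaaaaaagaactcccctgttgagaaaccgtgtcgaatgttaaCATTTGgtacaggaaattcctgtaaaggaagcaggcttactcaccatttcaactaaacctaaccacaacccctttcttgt
Il4: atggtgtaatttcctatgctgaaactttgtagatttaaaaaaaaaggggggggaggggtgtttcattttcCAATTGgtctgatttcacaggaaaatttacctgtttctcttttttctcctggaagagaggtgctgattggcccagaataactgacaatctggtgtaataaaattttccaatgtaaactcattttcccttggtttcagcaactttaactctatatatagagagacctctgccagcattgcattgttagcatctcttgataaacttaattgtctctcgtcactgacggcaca
Il13: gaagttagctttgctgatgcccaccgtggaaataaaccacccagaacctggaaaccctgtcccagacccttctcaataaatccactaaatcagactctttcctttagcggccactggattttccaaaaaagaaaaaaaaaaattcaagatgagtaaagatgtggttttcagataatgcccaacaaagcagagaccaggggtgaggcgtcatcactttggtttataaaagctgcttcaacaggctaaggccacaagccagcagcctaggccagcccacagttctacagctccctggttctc
Il5: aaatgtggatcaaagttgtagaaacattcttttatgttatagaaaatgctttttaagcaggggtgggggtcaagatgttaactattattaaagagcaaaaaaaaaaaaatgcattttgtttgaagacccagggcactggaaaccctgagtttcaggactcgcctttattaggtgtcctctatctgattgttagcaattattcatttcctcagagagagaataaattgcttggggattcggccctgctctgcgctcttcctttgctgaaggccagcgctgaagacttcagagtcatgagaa
Their GRCm38.p6 positions are chr1:40515112-40515411 (plus strand) for Il18rap and chr11:53618616-53618915 (minus strand) for Il4. Il13 is at chr11:53634653-53634952 (minus strand) and Il5 at chr11:53720544-53720843 (plus strand), in the same build, which is not that of the peaks. Il18rap has the match CATTTG with its first base at -30 from the start, and Il4 has CAATTG at -180, while the windows of Il13 and Il5 hold no CANNTG. A second Il4 start of the table has 3 matches. Among the 12 windows, 10 held a CANNTG, against 72.3% of the 32851 promoters of the table, and the motif reads the same on both strands. CAGCTG was in 0 of the 12, against 16.3% of all promoters, and CACCTG, read on both strands, was in 2, each of Il18r1, against 20.2%. These matches describe letters in short windows, and no peak was placed on them.

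Across the 3 windows the kept regions, those called in both lists with at least 1 bp of overlap, tended to rank higher in the dKO list than in the WT list. Each peak's rank is the percentile of the authors' score within its own list, where 100 is the strongest. Of the 63 kept pairs, 45 had the higher percentile in the dKO list, which is 71.4% (58.7 to 82.1%), against a background of 35.6% among all 52206 pairs of the 2 lists. The median difference, dKO minus WT, was 13.4 points in the windows and -2.67 points over all pairs. At least 20 points higher in the dKO list were 22 of the 63 (34.9%), against 7.4% of all pairs, and at least 20 points lower were 6 (9.52%), against 17.8%. The kept pairs of the windows had a median percentile of 64.3 in the dKO list and 48.8 in the WT list, whereas over all pairs these medians were 56.7 in dKO and 63.7 in WT.

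Percentiles from lists of different length are not on the same footing, and the WT list is the longer. When only the 52206 pairs were ranked, so that both ranks ran over the same number of peaks, 50 of the 63 pairs (79.4%) ranked higher in dKO, against 53.1% of all pairs. The median difference was then 16.1 points in the windows and 0.552 points over all pairs. On that scale 30 pairs stood at least 20 points higher in dKO (background 11.3%) and 4 at least 20 points lower (background 12%). A peak that is weak in one list also has more room above it in the other, and 32 of the 63 pairs were in the lower 50% of the WT list. Of those 32, 27 (84.4%) ranked higher in the dKO list, against 51.9% of all pairs in the lower 50% of WT, and 18 (56.2%) did so by at least 20 points, against 19%. Of the 31 pairs in the upper 50% of WT, 18 (58.1%) ranked higher in dKO, against 27.1%, and 4 (12.9%) by at least 20 points, against 1.32%. The share was above background in both parts of the WT list, but pairs were not matched on WT rank within each part. An effect of the room above weak peaks was not tested. With the WT list shortened to the length of the dKO list, higher in dKO were 16 of 23 pairs in the receptor, 12 of 13 in the Icos and 18 of 22 in the cytokine window, against 54.7% of all pairs. In the upper 50% of both lists these were 6 of 10, 4 of 4 and 8 of 12, against 34.9%, with 12 of 22, 10 of 14 and 10 of 22 dKO peaks (background 24.8%) and 10 of 20, 4 of 8 and 4 of 16 WT peaks (background 38.9%) left without a partner there.

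**Figure D1:**
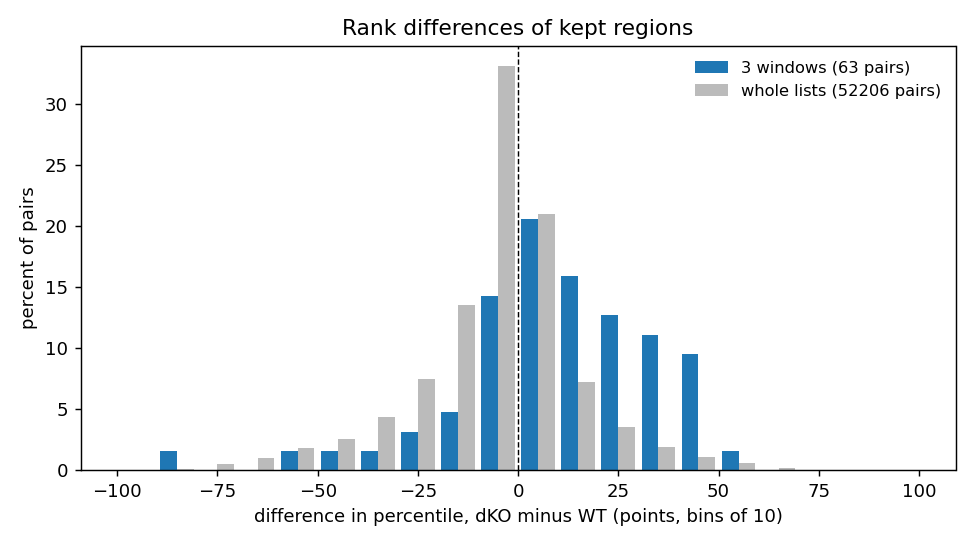
Difference in score percentile (dKO minus WT, points, in bins of 10) of kept pairs, as a percent of pairs on the vertical axis, for the 63 pairs of the 3 windows and for all 52206 pairs. The fullest bin of the whole lists is the one just below 0, while 45 of the 63 pairs of the windows sit above 0 and 22 at or above 20 points.

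The intervals of the 3 windows overlapped in this respect. Higher in the dKO list were 17 of 25 pairs in the receptor window (68.0%, 46.5 to 85.1%), 11 of 14 in the Icos window (78.6%, 49.2 to 95.3%) and 17 of 24 in the cytokine window (70.8%, 48.9 to 87.4%). Median differences were 13.8, 19.7 and 6.7 points in the receptor, Icos and cytokine windows. The same share was 32.4% over all of chromosome 1 and 39.1% over all of chromosome 11. Members also filled the upper part of the dKO list more than that of the WT list. In the upper 25% of their list were 27 of the 89 dKO peaks (30.3%) and 15 of the 95 WT peaks (15.8%), where the whole lists have 25% and 24.9%. The gap was widest in the cytokine window, with 12 of 32 peaks in the upper 25% of dKO and 5 of 30 in that of WT, and 9 of 37 in dKO and 7 of 47 in WT in the receptor window. In the Icos window they were 6 of 20 in dKO and 3 of 18 in WT.

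**Figure D2:**
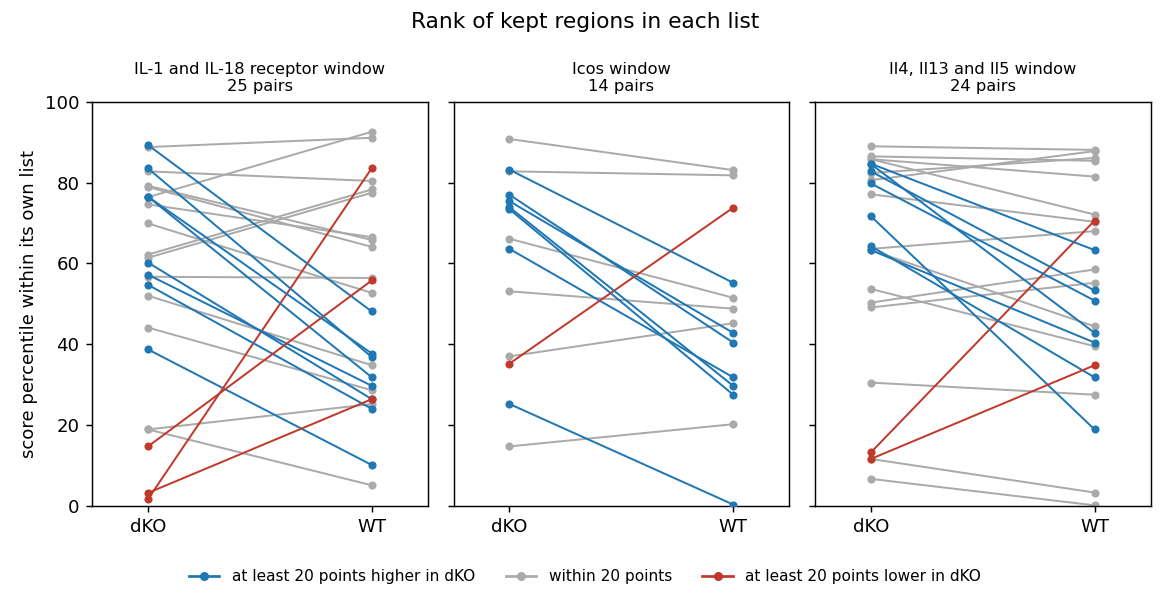
Score percentile within its own list (vertical axis) of each kept pair, dKO on the left and WT on the right, for the 3 windows. Lines that fall from left to right are regions ranked higher in dKO, and 22 of the 63 lines do so by at least 20 points against 6 that run the other way by as much.

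Over the whole lists, whether a region was called at all followed the background more closely than its rank did. In the upper 50% of both lists this was not so for dKO-only peaks. There the receptor (32.2 to 75.6%) and Icos (41.9 to 91.6%) intervals lay above the background of 24.8%. That of the cytokine window (24.4 to 67.8%) included it. The shares that follow are those over the whole lists. Of the 89 dKO peaks, 26 had no WT partner (29.2%, 20.1 to 39.8%), against 25.3% of the whole dKO list. Of the 95 WT peaks, 32 had no dKO partner (33.7%, 24.3 to 44.1%), against 39.1% of the whole WT list. Both intervals include the background. In the receptor window 12 of 37 peaks were in the dKO list only (32.4%, 18.0 to 49.8%) and 22 of 47 in the WT list only (46.8%, 32.1 to 61.9%). The Icos window had 6 of 20 dKO-only (30.0%, 11.9 to 54.3%) and 4 of 18 WT-only peaks (22.2%, 6.41 to 47.6%). The cytokine window had 8 of 32 dKO-only (25%, 11.5 to 43.4%) and 6 of 30 WT-only peaks (20%, 7.71 to 38.6%), and this last interval lies just below the background of 39.1%. For chromosome 11 as a whole the WT-only share was 34.0%, which is inside the interval of the cytokine window. With equal list lengths the share of that window was 15.4% (4.36 to 34.9%), and this interval included that setting's background of 31.4%. In the upper 50% of both lists the interval (7.27 to 52.4%) also included its background of 38.9%. With the window widened (6.19 to 32.0%) or narrowed (4.54 to 36.1%) by 20 kb it stayed below 39.1%. The windows thus held 0.787, 1.11 and 1.07 dKO peaks per WT peak in the receptor, Icos and cytokine windows, where the whole lists have 0.815.

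**Figure D3:**
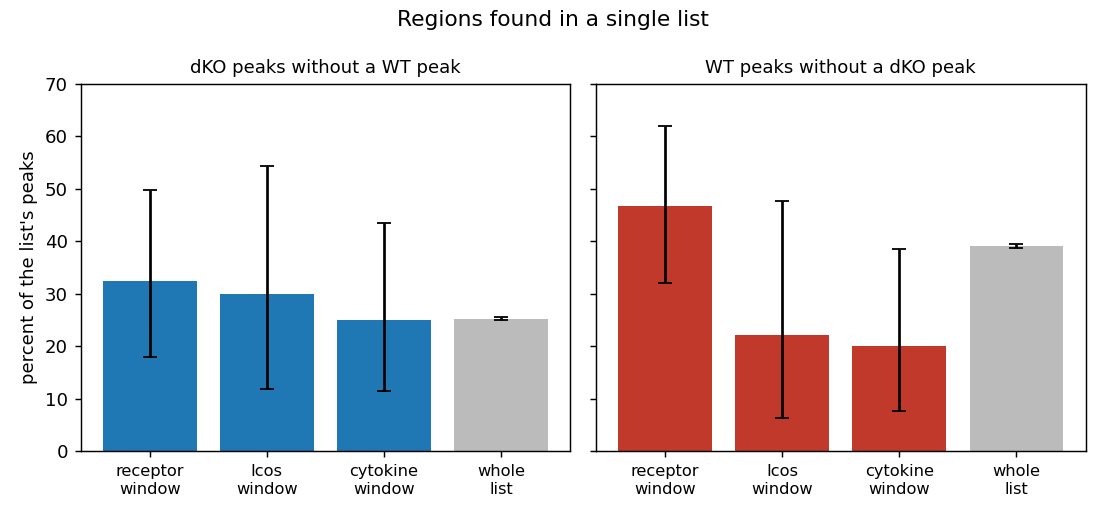
Percent of the dKO peaks without an overlapping WT peak (left) and of the WT peaks without an overlapping dKO peak (right), by window and for the whole list, with exact 95% intervals as bars. All window intervals include the whole-list value except the WT-only share of the cytokine window, 20% against 39.1%. With equal list lengths that interval included its background as well.

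Peaks found in a single list were not all weak. Of the 58 dKO peaks of the windows in the upper 50% of the dKO list, 12 (20.7%) were dKO-only, against 14.7% of all such peaks. Of the 44 WT peaks in the upper 50% of the WT list, 13 (29.5%) were WT-only, against 20.5%. Of these 13, 8 were in the receptor window. Since all peaks have a fixed width, neighbouring peaks that do not overlap were also counted. A WT peak centre lay within 500 bp of 8 of the 26 dKO-only peaks (30.8%, background 31.2%), and a dKO peak centre within 500 bp of 7 of the 32 WT-only peaks (21.9%, background 14.6%).

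**Figure D4:**
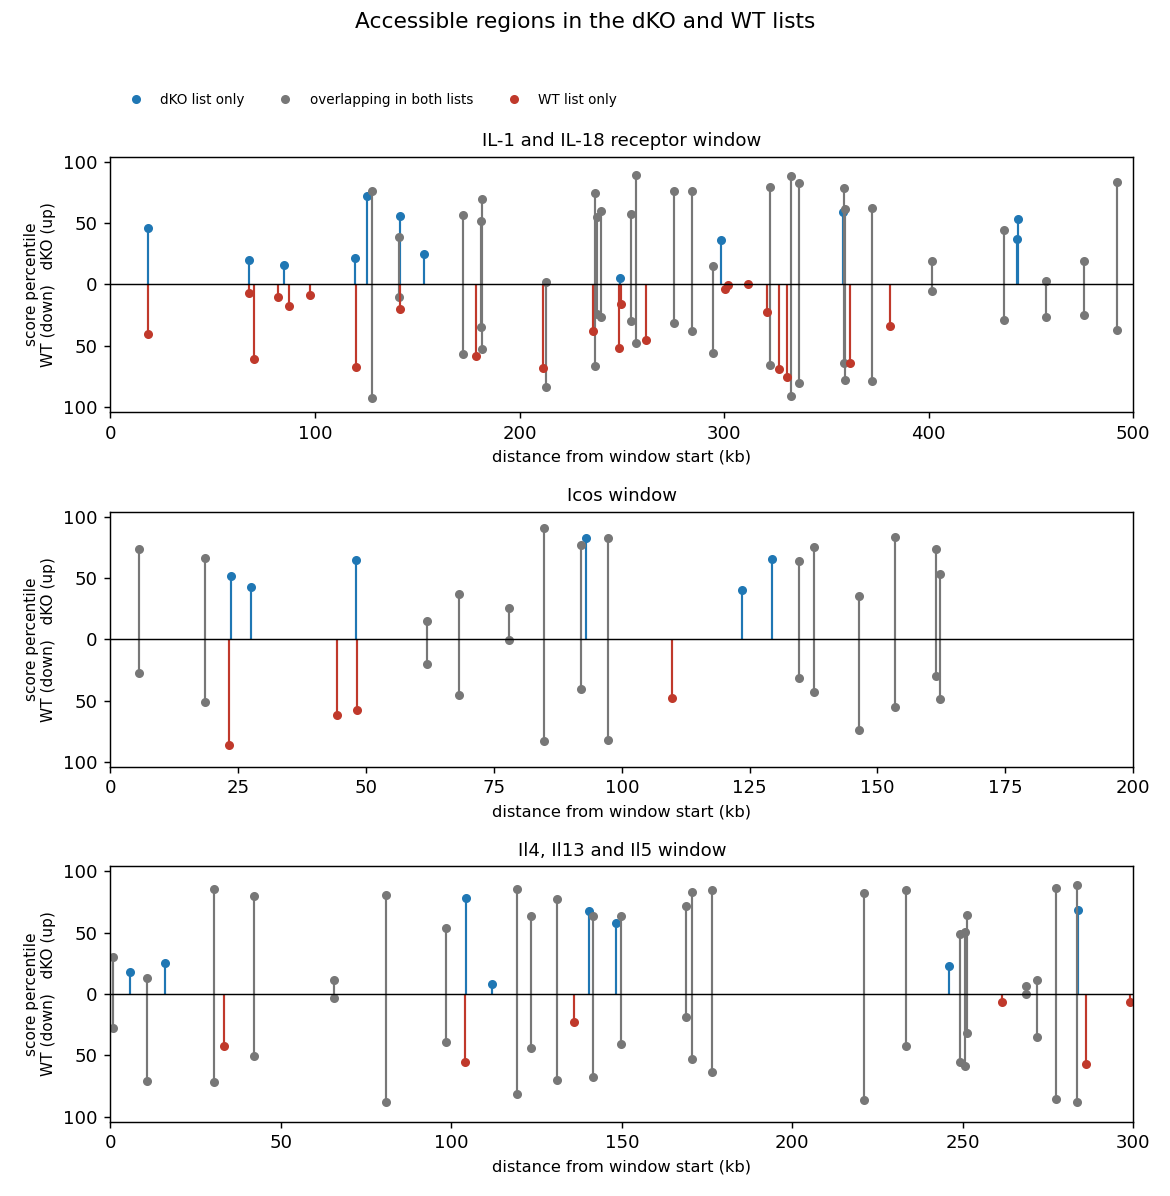
Position of every peak in the 3 windows (horizontal axis, kb from the window start) with its score percentile within its own list, dKO upwards and WT downwards. Grey stems are kept regions, blue stems dKO-only and red stems WT-only, and 45 of the 63 grey pairs reach higher upwards than downwards.

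In the receptor window, which holds the genes for the receptors of IL-1, IL-33 and IL-18, the kept regions highest by mean percentile ranked high in both lists. The first, chr1:40532674-40532824 in dKO coordinates, scored 31.6 in dKO (percentile 88.8) and 29.5 in WT (percentile 91.1). Next to it, chr1:40536376-40536526 scored 22.8 in dKO (percentile 82.8) and 17.5 in WT (percentile 80.4). These neighbours differed by fewer than 3 points between the lists. Another strong region, chr1:40327933-40328083, scored 17.1 in dKO (percentile 76.4) and 32.7 in WT (percentile 92.6), and its peaks were placed 105 bp apart.

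The pairs that ranked higher in dKO by at least 20 points were 8 of the 25, and 6 of them lay in 50 kb stretches next to each other (40400001 to 40450000 and 40450001 to 40500000). The largest of the central group was chr1:40475461-40475611, with a score of 17.2 in dKO (percentile 76.5) and 5.59 in WT (percentile 31.8), a difference of 44.7 points. Close by, chr1:40456596-40456746 scored 32.6 in dKO (percentile 89.3) and 7.67 in WT (percentile 48.1), although its WT peak was placed 115 bp away. Another, chr1:40484229-40484379, scored 17.2 in dKO (percentile 76.5) and 6.24 in WT (percentile 37.7). All 3 were in the upper 25% of the dKO list and in the lower 50% of the WT list. The other central pairs were chr1:40454461-40454611 with a difference of 27.5 points, chr1:40437951-40438101 with 30.7 points and chr1:40439881-40440031 with 33.8 points. Outside that group, chr1:40692013-40692163 near the window's end scored 23.6 in dKO (percentile 83.5) and 6.13 in WT (percentile 36.8). Its difference of 46.7 points was the largest of the receptor window in this direction. The weakest of the 8, chr1:40340954-40341104, was at percentile 38.7 in dKO and 10.1 in WT.

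Regions that stood lower in dKO lay among these. The widest gap of all 63 pairs was at chr1:40412727-40412877, with a score of 3.08 in dKO (percentile 1.69) and 19.9 in WT (percentile 83.6), a difference of -81.9 points. This region was thus near the bottom of the dKO list, with its peaks 107 bp apart, and the WT-only peak chr1:40411664-40411814 (percentile 68.3) lay just before it. At chr1:40494197-40494347 the score was 3.93 in dKO (percentile 14.7) and 8.98 in WT (percentile 55.8), and at chr1:40657359-40657509 it was 3.19 in dKO (percentile 3.2) and 5.04 in WT (percentile 26.4).

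The strongest dKO-only peak of the receptor window, chr1:40325560-40325710, scored 14.5 (percentile 72.1) and lay 2478 bp from the nearest WT peak. Others in the upper 50% were chr1:40558017-40558167 (percentile 59.4), chr1:40341500-40341650 (percentile 55.7) and chr1:40643764-40643914 (percentile 53.7). The last of these lay 7033 bp from the nearest WT peak, and a weaker dKO-only neighbour, chr1:40643028-40643178 (percentile 37), lay 6297 bp from it. By contrast, chr1:40341500-40341650 had a WT-only peak 179 bp away, and 3 further dKO-only peaks had one at 208, 266 and 350 bp. Those 4 couples are the only ones of the receptor window within 500 bp.

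Of the 47 WT peaks of the receptor window, 46.8% were WT-only, against 39.1% of the whole WT list. The counts by stretch that follow are small and have no background. The first 100 kb held 3 dKO-only peaks, 6 WT-only peaks and no kept region. Its WT-only peaks other than chr1:40270280-40270430 were at percentiles of 6.84 to 40.4. Those at 6.84 and 40.4 had a dKO-only peak 208 and 266 bp away. The stretch from 40500001 to 40550000 held 0 dKO-only and 6 WT-only peaks beside 3 kept regions. With 9 WT peaks it was also the 50 kb stretch of the window with the most of them. The strongest WT-only peak of the receptor window, chr1:40530634-40530784, with a score of 14.7 (percentile 75.2), was there, as was chr1:40526919-40527069 with a score of 12.4 (percentile 69.3). The peak at 40530634 lay 2040 bp before the kept region chr1:40532674-40532824 that ranked high in both lists. For the peak at 40526919 the nearest dKO peak was that of the kept region chr1:40522404-40522554, 4515 bp away. The other WT-only peaks of that stretch were weak, at percentiles of 0.007 to 22.8. Beside chr1:40411664-40411814, described above, the other WT-only peaks in the upper 50% were chr1:40270280-40270430, chr1:40320043-40320193, chr1:40378821-40378971, chr1:40448330-40448480 and chr1:40561560-40561710, at percentiles of 60.5, 67.3, 58.0, 52.1 and 64.1. A dKO-only peak at percentile 21.4 lay 350 bp from the one at percentile 67.3.

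In the Icos window the 2 kept regions highest by mean percentile lay in the stretch from 61000001 to 61050000. The first, chr1:61034644-61034794, scored 36.1 in dKO (percentile 90.8) and 19.5 in WT (percentile 83.1), and was the single peak of the 3 windows in the upper 10% of the dKO list. The second, chr1:61047228-61047378, scored 22.8 in dKO (percentile 82.8) and 18.5 in WT (percentile 81.8). Both held their rank to within 8 points. Between them lay the strongest dKO-only peak of all 3 windows, chr1:61043052-61043202, with a score of 22.1 (percentile 82.2) and no WT peak centre nearer than 1081 bp. That nearest WT peak belonged to the kept region chr1:61041988-61042138, which scored 17.5 in dKO (percentile 77) and 6.57 in WT (percentile 40.4).

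Of the 14 kept pairs of the Icos window, 7 ranked at least 20 points higher in dKO, at both ends of the window as well as in the middle. At the near end, chr1:60955424-60955574 scored 15.2 in dKO (percentile 73.4) and 5.15 in WT (percentile 27.5), a difference of 45.9 points. At the far end, chr1:61111328-61111478 scored 15.5 in dKO (percentile 73.9) and 5.37 in WT (percentile 29.7), and chr1:61103284-61103434 scored 23.3 in dKO (percentile 83.2) and 8.87 in WT (percentile 55.2). By mean percentile, the last of these came after the 2 strongest of the Icos window. Between lay chr1:61084479-61084629 with a difference of 31.8 points and chr1:61087520-61087670 with 32.6 points. The weakest, chr1:61027822-61027972, was at percentile 25.2 in dKO and 0.315 in WT. A single region went the other way by as much: chr1:61096287-61096437 scored 5.84 in dKO (percentile 35.2) and 14 in WT (percentile 73.8).

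Single-list peaks of the Icos window were mostly above the middle of their lists. A dKO-only peak, chr1:60973451-60973601, with a score of 8.28 (percentile 51.5), lay 326 bp from the strongest WT-only peak of all 3 windows. That WT-only peak, chr1:60973125-60973275, scored 22.2 (percentile 86.1). A similar couple was dKO-only chr1:60997984-60998134 (percentile 64.3) and WT-only chr1:60998219-60998369 (percentile 57.5), 235 bp apart. Counting these couples as shared, as a gap of up to 500 bp does, left 4 of the 20 dKO peaks and 2 of the 18 WT peaks in a single list. Whole-list shares were not computed for that rule. WT-only chr1:60994306-60994456 (percentile 61.6) had no dKO peak nearer than 3678 bp. Further along the window, dKO-only chr1:61079197-61079347 scored 11.9 (percentile 65.8) with the nearest WT peak 5289 bp away.

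The cytokine window, that of Il4, Il13 and Il5, had the largest kept part, with 24 of its 32 dKO peaks and 24 of its 30 WT peaks in pairs. Its highest regions by mean percentile hardly differed in rank. Near the far end, chr11:53583421-53583571 scored 32.1 in dKO (percentile 89.0) and 24.6 in WT (percentile 88.1), and chr11:53577195-53577345 scored 27.7 in dKO (percentile 86.5) and 21.6 in WT (percentile 85.4). At 220.9 kb from the window's start, chr11:53520777-53520927 scored 22.3 in dKO (percentile 82.4) and 22.2 in WT (percentile 86.1). The differences of these 3 were 0.928, 1.07 and -3.72 points.

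Higher in dKO by at least 20 points were 7 pairs of the cytokine window, and the stretch from 53450001 to 53500000 held 3 of them and no other peak of either list. There, chr11:53468717-53468867 scored 14.3 in dKO (percentile 71.7) and 4.38 in WT (percentile 18.9). Its difference of 52.8 points was the largest in this direction in the 3 windows. The next, chr11:53470416-53470566, scored 22.8 in dKO (percentile 82.8) and 8.54 in WT (percentile 53.3), and chr11:53476506-53476656 scored 25.1 in dKO (percentile 84.7) and 10.6 in WT (percentile 63.3). After a gap of more than 40 kb and the kept region at 53520777, chr11:53533318-53533468 scored 24.8 in dKO (percentile 84.6) and 6.9 in WT (percentile 42.8). That is a difference of 41.8 points, with the peaks of both lists 4 bp apart. The others were chr11:53342025-53342175 with 29.0 points, chr11:53551198-53551348 with 32.5 points and chr11:53449700-53449850 with 22.9 points. Lower in dKO were chr11:53310603-53310753, at percentile 13.2 in dKO and 70.6 in WT, and the weak region chr11:53571607-53571757, at 11.6 in dKO and 34.8 in WT.

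The stretch from 53400001 to 53450000, which had the most dKO peaks of the cytokine window (9 of 32), held 4 of the window's 8 dKO-only peaks. The strongest, chr11:53404104-53404254, scored 18.5 (percentile 78.3), and the WT-only peak chr11:53403880-53404030 (score 8.98, percentile 55.8) lay 224 bp from it. Further along were chr11:53440296-53440446 with a score of 12.4 (percentile 67.3) and chr11:53448129-53448279 with 9.66 (percentile 58.0), at 1184 and 1636 bp from the nearest WT peak, while the fourth was weak (percentile 8.34). Each of the first 3 thus had accessible chromatin called in WT within 2 kb. At the far end, dKO-only chr11:53583860-53584010 (score 13, percentile 68.7) lay 427 bp from the strongest kept region of the window. The highest WT-only peak of the cytokine window was chr11:53586192-53586342, with a score of 9.2 (percentile 56.9). The other 4 WT-only peaks were below the middle of the WT list, at percentiles of 6.84 to 42.8.

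With each window widened by 20 kb at both ends, the receptor, Icos and cytokine windows held 39, 26 and 40 dKO peaks and 48, 21 and 37 WT peaks, with 13, 10 and 9 dKO-only and 22, 5 and 6 WT-only. Narrowed by 20 kb, they held 35, 18 and 26 dKO peaks and 45, 16 and 25 WT peaks, with 11, 6 and 5 dKO-only and 21, 4 and 4 WT-only. The dKO-only shares were 33.3, 38.5 and 22.5% when widened and 31.4, 33.3 and 19.2% when narrowed, against 25.3% of the whole dKO list. The WT-only shares were 45.8, 23.8 and 16.2% when widened and 46.7, 25 and 16% when narrowed, against 39.1% of the whole WT list. Just outside the cytokine window a weak kept region lay less than 1 kb past the far edge, at percentile 11.6 in dKO and 11.7 in WT, and inside that edge the last WT peak was WT-only at percentile 6.84. Just past the far edge of the receptor window lay a kept region at percentile 61 in dKO and 35.8 in WT, and past the Icos window a dKO peak at percentile 75.3 and a WT peak at 39.5 that did not overlap.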

How the data were processed

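ATAC-seq peak lists of 1 double-knockout and 1 wild-type library were used, with genotypes taken from the labels. Per the submitters' processing notes, bcl2fastq 1.8.4, Bowtie, HOMER and the build mm9 were used, with no roles stated. For the transposase shift, duplicate removal, background library, peak threshold and depth the sources used here give nothing, and each could change a list's length and its ranks. The authors called peaks per sample. The authors' deposited score has no header or stated unit, so it was used only as a rank within its list (mean ranks for ties).

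Coordinates are mm9 and 1-based. A kept peak has 1 bp or more in common with a peak from the opposite list (checked with bedtools 2.31.1), and all kept peaks paired 1 to 1. Pairs were compared by percentile, with 20 points as a large difference, and windows were also read in 50 kb bins. Named peaks are, per window, the 3 kept pairs highest by mean percentile, single-list peaks in the upper 50% of their list (with none, the highest) or within 500 bp of the other list, and pairs differing by at least 20 points. The members, windows and rules were chosen with earlier results of these data known. The split of kept pairs at the middle of the WT list and the counts in the upper 25% were added after the values were seen. Intervals are exact Clopper-Pearson (95%). Steps were tested on simulated data. Software was pandas 2.3.3, SciPy 1.17.1, NumPy 2.4.6 and Python 3.11.15.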

Additional observations from a re-analysis of the deposited data

How the results depend on the processing

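No paired analysis was possible because each genotype had 1 library, which also left no replicate to omit. Each of the 9 window shares (kept pairs higher in the dKO list, dKO-only and WT-only peaks in the 3 windows) was recomputed with another overlap rule, score threshold, list length, window size or ranking. Of these values, 23 of 24 for rank, 20 of 24 for dKO-only and 23 of 24 for WT-only peaks stayed inside the interval of the value reported. The share of kept pairs higher in the dKO list was 60.0 to 73.7% in the receptor, 75 to 100% in the Icos and 66.7 to 81.8% in the cytokine window. The background moved too, from 35.6% of all pairs to 53.1% with only pairs ranked and 54.7% with equal list lengths. At these last settings the receptor intervals (50.6 to 87.9% and 47.1 to 86.8%) included the background, while those of the Icos and cytokine windows lay above it. Its highest Icos value, 100%, rests on 4 pairs in the upper 50% of both lists. That setting also gave dKO-only shares of 54.5% in the receptor, 71.4% in the Icos and 45.5% in the cytokine window, against 24.8% of all such dKO peaks, and a WT-only share of 50% in the Icos window. Most of those dKO-only peaks have a WT partner in the lower 50% of the WT list, since 18.2, 28.6 and 18.2% lacked one in the whole WT list. Gaps of up to 500 bp left 16.2% dKO-only peaks in the receptor window. The share over the whole dKO list was not computed for that rule, so this value has no background. Taking as many of the strongest peaks from the WT as from the dKO list (added after the data were seen) left 12.6% of the WT peaks in the upper part, against 15.8%. The whole WT list fell as well at that setting, to 17572 of its 85764 peaks, against 21383 in its upper 25%. The depth behind the lists is unknown, so a peak missing from one list cannot be told from one below its threshold, and the windows hold 14 to 25 pairs each, which leaves wide intervals.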
